A study of Homo sapiens with 6 samples.

Results

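The splicing factor genes described here were the protein-coding genes on the array whose symbol starts with SRSF, SF3A, SF3B, PRPF, HNRNP, SNRP, SNRNP, U2AF or LSM, with the brightest probe set taken for each gene. The rule found 64 of the 14884 genes tested, namely 21 HNRNP, 11 SNRP, 10 SRSF, 10 PRPF, 7 SNRNP, 3 U2AF and 2 LSM genes, and 0 genes of the gene table used here matched the SF3A or SF3B prefix. The 2 that matched LSM were LSM12 and LSMEM1, of which LSMEM1 codes for no LSm protein. RNA came from SH-SY5Y, a human neuroblastoma line, in 3 groups of 2 arrays each: cells given 16F16 at 4 µM, cells given securinine at 30 µM, and mock cells given the solvent methanol, all for 24 h. The labels describe both compounds as inhibitors of protein disulfide isomerase, an enzyme of the endoplasmic reticulum that forms and rearranges disulfide bonds. The 2 doses differed, the cells were a single line, and how the replicate cultures, labelled biological, were separated is not stated, so p-values measure the spread between these arrays.

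Splicing removes introns from pre-mRNA and is carried out by the spliceosome, which assembles on each intron from small nuclear ribonucleoproteins (snRNPs), each a small nuclear RNA with its proteins. The U1 snRNP recognises the donor splice site, the U2 snRNP and the U2AF dimer recognise the branch point and the acceptor site, and the tri-snRNP of U4, U6 and U5 then joins to form the active complex. SR proteins, named for their arginine and serine repeats, mostly favour the use of nearby splice sites, and heterogeneous nuclear ribonucleoproteins (hnRNPs) coat pre-mRNA and often oppose them. Many RNA-binding proteins of these families are widely expressed, and neurons use large sets of alternative exons.

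Array values were log2 expression as deposited, on which 1 unit is a doubling, and probe sets of different genes are not compared by level. Across probe sets, Pearson's r was 0.986 to 0.990 within groups and 0.979 to 0.986 between them. The 9 noradrenergic neuroblastoma markers that were measured, among them PHOX2A, HAND2, GATA3 and DBH, lay above the median of all probe sets on all 6 arrays. Of 4 measured markers of other cells, the endothelial marker PECAM1 lay below that median on 6 arrays, the blood marker CD14 on 3, and the epithelial markers EPCAM and KRT19 on 0. Of the 9 neuroblastoma markers, CHGA and CHGB fell with both compounds (log2 differences of -1.24 and -0.81 with 16F16, and -2.22 and -0.64 with securinine), and DBH and GATA2 fell with securinine. Of the 4 markers of other cells CD14 rose by 0.57 with securinine (adjusted p = 0.038) and 0 passed with 16F16 in limma (lowest adjusted p = 0.61). Their part in the results was not tested. Of the 64 splicing factor genes, 59 lay above the array median on all 6 arrays. The exceptions were HNRNPCL1, which was at or below the lower quartile on all 6 arrays, LSMEM1, HNRNPCL2, HNRNPA3 and SNRPG. In a bulk extract, fewer cells of a kind and less RNA per cell cannot be told apart.

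With securinine, individual splicing factor genes moved in both directions, and with 16F16 the calls were falls in genes of snRNP proteins. Calls were made by limma at an adjusted p below 0.05, with all 14884 genes tested. With securinine 6 of the 64 genes rose and 6 fell, where 8.40% of all genes rose and 10.6% fell. The 12 called genes were 18.8% of the 64, beside 19.0% of all genes. The share called with securinine was 25.3% of genes above the median of all probe sets and 31.9% of the 4922 genes whose mean level lay between the members' quartiles. The 64 genes themselves were not limited to that range, so the match in level is partial. With 16F16 SNRPA and SNRPD1 fell and 0 genes rose in limma, where 0.779% of all genes fell and 0.719% rose, so that 3.12% of the 64 genes were called beside 1.50% of all genes, 2.01% of genes above the median and 2.80% of the 4922 genes of like level. At an unadjusted p under 0.05, 2 of the 64 genes were higher and 11 lower with 16F16, beside 1455 higher and 1684 lower of all 14884 genes. SNRPA and SNRPD1 were the 2 genes that fell with both compounds, and 52 of the 64 were called with neither.

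The differences of the 64 genes were small, and more of them were negative than positive with each compound. The median difference was -0.11 on the log2 scale for 16F16 minus mock (all genes -0.012) and -0.060 for securinine minus mock (all genes -0.035). Both 16F16 arrays lay below both mock arrays for 36 of the 64 genes (56.2%, beside 27.7% of all genes and 35.4% of the 4922 genes of like level), and above them for 11 (17.2%, beside 24.1% and 32.8%). Both securinine arrays lay below both mock arrays for 30 genes (46.9%, beside 33.9% of all genes and 38.6% of those of like level) and above them for 17 (26.6%, beside 27.0% and 41.7%). The 2 comparisons share the mock arrays, so these counts are not independent of each other.

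Fits with 1 array fewer made fewer calls, among all genes as among the 64. With securinine, 2 genes rose and 0 fell without mock replicate 1 (4.42% of all genes called), and 3 rose and 1 fell without mock replicate 2 (4.23%). Without securinine replicate 1, 1 rose and 0 fell (4.71%), and without securinine replicate 2, 3 rose and 1 fell (6.54%). For 16F16 against mock, 0 of all 14884 genes were called in limma when any 1 of the 6 arrays was left out, so those fits say nothing about single members, of which 8 to 11 had an unadjusted p under 0.05. An intensity trend in the variance prior gave 10 rises and 11 falls with securinine, with 27.7% of all genes called, and 1 rise and 11 falls with 16F16, with 12.1% of all genes called.

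**Figure D1:**
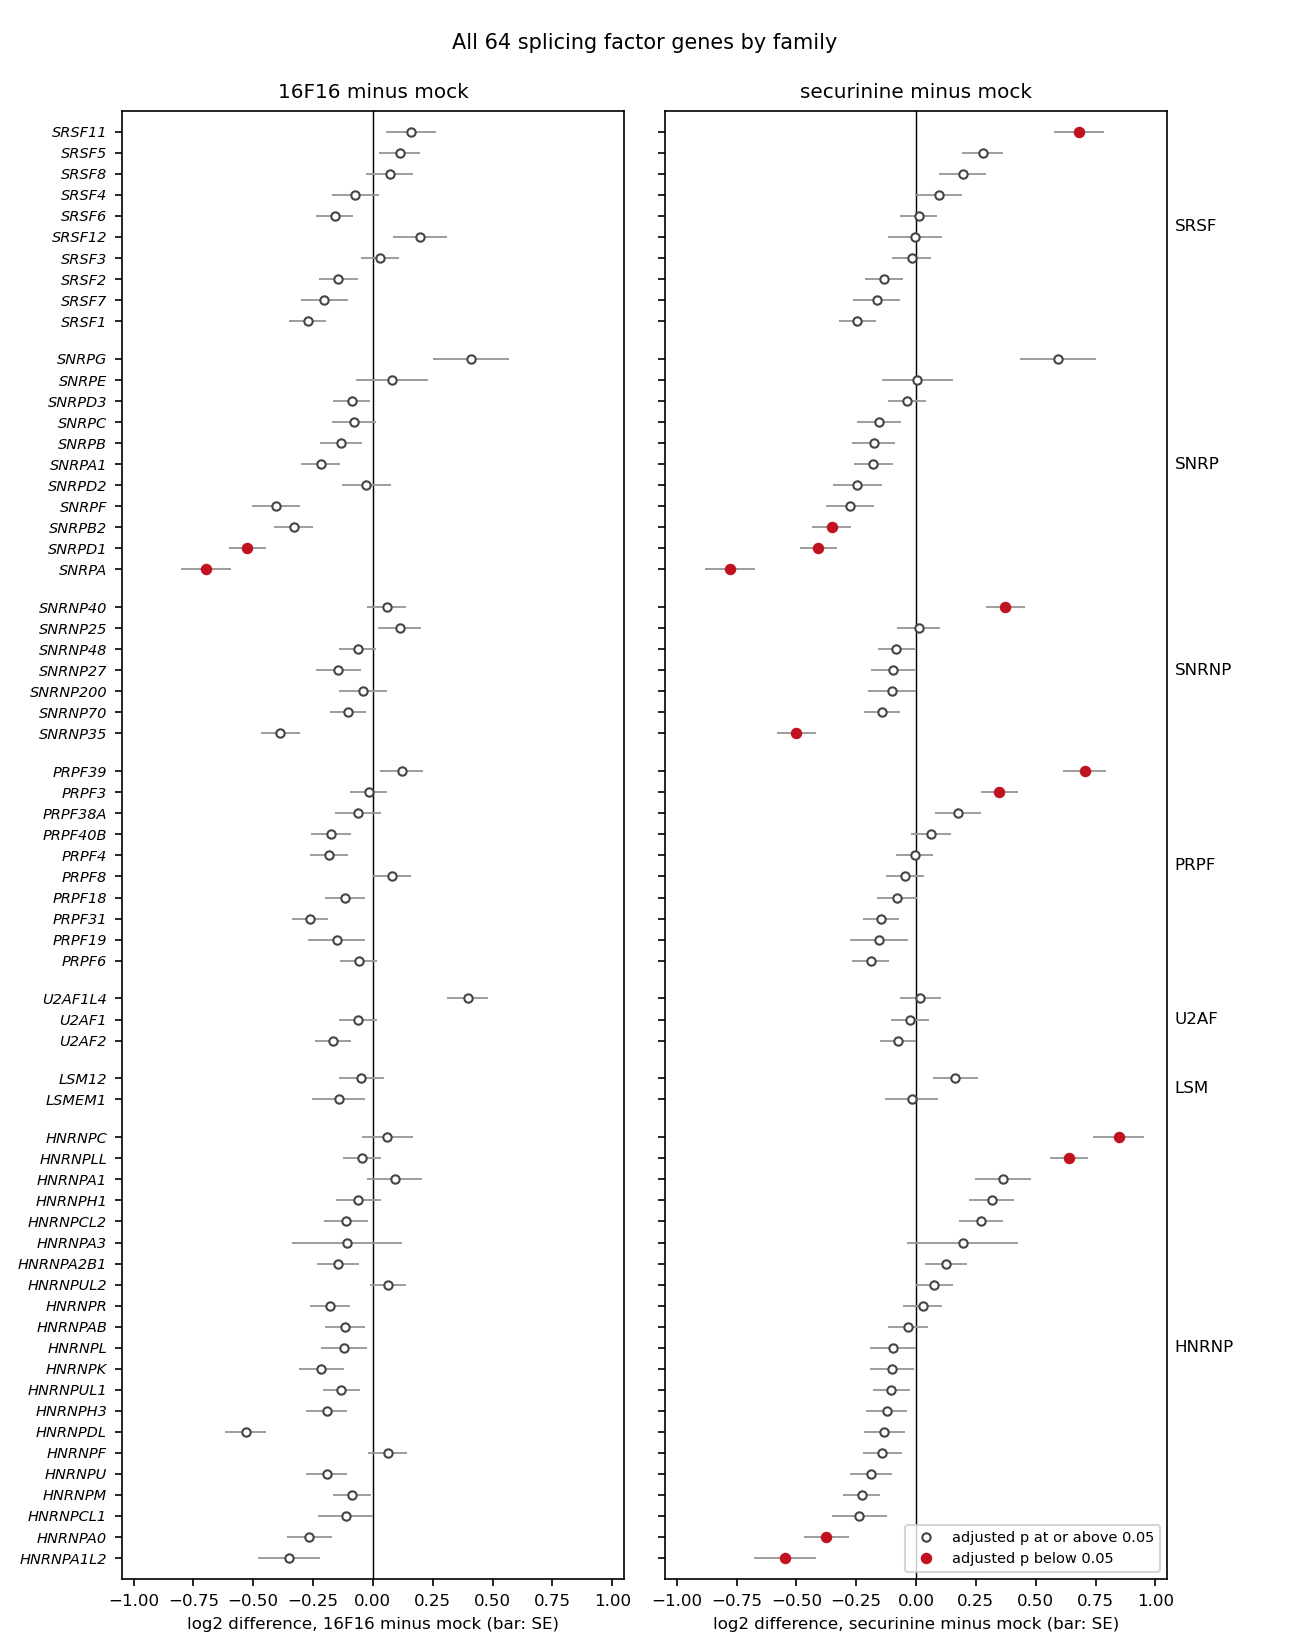
Difference from mock on the log2 scale for each of the 64 splicing factor genes, grouped by family, with 16F16 minus mock on the left and securinine minus mock on the right. Points are differences of group means (2 arrays each), bars are the SE of the limma fit, and filled points passed at an adjusted p under 0.05: 2 falls with 16F16, and 6 rises and 6 falls with securinine.

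Promoter sequences are shown for 4 called genes that have 1 RefSeq start site each: SNRPA and SNRPB2, the U1 and U2 protein genes that fell with securinine, and HNRNPC and HNRNPLL, the hnRNP genes that rose with it. Each is the 250 bases before the start site in RefSeq assembly GRCh38.p14, written 5′ to 3′ on the gene's strand, and capitals mark matches to 3 short motifs.
SNRPA (chr19:40750953-40751202, plus strand): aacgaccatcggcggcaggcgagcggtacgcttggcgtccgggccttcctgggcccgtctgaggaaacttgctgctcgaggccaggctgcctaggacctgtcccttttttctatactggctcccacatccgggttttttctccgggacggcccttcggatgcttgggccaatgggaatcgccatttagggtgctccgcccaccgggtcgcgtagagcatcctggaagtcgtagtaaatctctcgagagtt
SNRPB2 (chr20:16729776-16730025, plus strand): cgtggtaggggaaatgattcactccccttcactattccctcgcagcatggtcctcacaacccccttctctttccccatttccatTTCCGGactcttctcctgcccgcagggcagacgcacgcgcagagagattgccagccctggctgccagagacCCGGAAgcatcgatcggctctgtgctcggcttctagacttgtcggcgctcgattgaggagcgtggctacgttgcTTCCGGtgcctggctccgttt
HNRNPC (chr14:21269443-21269692, minus strand): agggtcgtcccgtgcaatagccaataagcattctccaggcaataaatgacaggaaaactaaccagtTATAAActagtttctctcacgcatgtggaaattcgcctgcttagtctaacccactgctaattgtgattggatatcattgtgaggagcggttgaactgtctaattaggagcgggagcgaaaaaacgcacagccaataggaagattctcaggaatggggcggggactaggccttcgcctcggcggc
HNRNPLL (chr2:38602929-38603178, minus strand): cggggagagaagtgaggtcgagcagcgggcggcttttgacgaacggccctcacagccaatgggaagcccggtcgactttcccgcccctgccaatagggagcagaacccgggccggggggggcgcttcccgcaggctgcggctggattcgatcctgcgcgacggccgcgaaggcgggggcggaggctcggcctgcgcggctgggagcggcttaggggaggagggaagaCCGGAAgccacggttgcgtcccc
The motifs, searched on both strands of windows from 250 bases before to 50 after a start site, were the E-box CACGTG bound by MYC and related factors, the ETS core CCGGAA, and TATAAA. SNRPB2 had 3 ETS cores, which begin at positions -166, -95 and -21 from the start site, HNRNPLL had 1 at -23, HNRNPC had TATAAA at -184, and SNRPA had none of the 3 motifs. The ETS core was in 26 of 79 windows (32.9%) of the 58 splicing factor genes that matched, beside 17.2% of all 35116 windows and 21.2% of those of protein-coding genes. The E-box was in 8.86% of the members' windows, beside 7.26% of all windows and 8.34% of those of protein-coding genes. TATAAA was likewise in 8.86%, beside 11.5% of all windows and 9.47% of those of protein-coding genes. These matches are descriptions of the sequence and do not show that a factor binds.

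Of the 5 genes of U1 and U2 snRNP proteins, SNRPA fell with both compounds and SNRPB2 with securinine. Over all genes 10.6% fell with securinine and 0.779% with 16F16. SNRPA, which codes for a protein that binds a stem loop of U1 RNA, was at 9.50 and 9.27 in the 16F16 arrays, at 9.29 and 9.33 in the securinine arrays and at 10.14 and 10.03 in the mock arrays. All 4 treated arrays lay below both mock arrays, and the treated groups overlapped each other. SNRPA fell by 0.70 ± 0.11 with 16F16 (SE, n = 2 arrays per group; adjusted p = 0.049), to 0.616 of the mock level, and by 0.78 ± 0.11 with securinine (adjusted p = 0.0086), to 0.584 of it. With 1 array left out its 16F16 difference was between -0.81 and -0.59. The 16F16 call was lost with quantile normalization, centred arrays or a robust prior. The same call was also lost with the 4 arrays of the groups compared, the replicate block or all probe sets tested. Its securinine call was lost when mock replicate 1 or securinine replicate 1 was left out (adjusted p = 0.060 each).

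SNRPB2, which codes for a U2 protein that binds its RNA together with SNRPA1, had 9.90 and 9.81 in the 16F16 arrays, 9.82 and 9.84 in the securinine arrays and 10.15 and 10.22 in the mock arrays. Its treated arrays were all lower than its mock arrays. It fell by 0.35 ± 0.081 with securinine (adjusted p = 0.035) and did not pass with 16F16, where the difference was -0.33 ± 0.081 (adjusted p = 0.10). The securinine call was lost without any 1 of the mock and securinine arrays (adjusted p from 0.11 to 0.16). The other 3 genes of these snRNPs, SNRNP70 and SNRPC of U1 and SNRPA1 of U2, lay between -0.22 and -0.080 with 16F16 and between -0.18 and -0.14 with securinine, and none passed. In each of these 5 genes both arrays of a treatment lay below both mock arrays, for 16F16 as for securinine. The same held for 27.7% of all genes with 16F16 and 33.9% with securinine, and both comparisons use the same mock arrays. This group of 5 and the role groups that follow were drawn up from textbook knowledge after the values were seen.

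The 7 Sm proteins form the ring that every spliceosomal snRNP but U6 shares, and 1 of their 7 genes was called. This was 14.3% of the 7 with each compound, beside 19.0% of all genes with securinine and 1.50% with 16F16. SNRPD1 had 9.33 and 9.35 in the 16F16 arrays, 9.48 and 9.43 in the securinine arrays and 9.83 and 9.90 in the mock arrays, with no overlap between treated and mock arrays. It fell by 0.52 ± 0.077 with 16F16 (adjusted p = 0.047), to 0.695 of the mock level, and by 0.41 ± 0.077 with securinine (adjusted p = 0.020), to 0.753 of it. With 1 array left out its 16F16 difference was between -0.56 and -0.49. The 16F16 call was lost in the same settings as that of SNRPA. Its securinine call was lost without any 1 of the mock and securinine arrays (adjusted p from 0.083 to 0.11).

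SNRPG, a dim Sm gene that lay below the array median on 3 of 6 arrays, was at 4.38 and 3.91 in the 16F16 arrays, at 4.37 and 4.28 in the securinine arrays and at 3.73 and 3.74 in the mock arrays. Its differences of 0.41 ± 0.16 with 16F16 and 0.59 ± 0.16 with securinine did not pass (adjusted p = 0.22 and 0.054), although all treated arrays were above mock. The 16F16 difference was 0.18 without 16F16 replicate 1 and 0.64 without 16F16 replicate 2. The securinine difference passed without either 16F16 array (adjusted p = 0.017), with protein-coding genes alone tested (0.037) and with the intensity trend (0.038). SNRPF was at -0.40 ± 0.10 with 16F16 and -0.27 ± 0.10 with securinine, also without passing. SNRPB, SNRPD2, SNRPD3 and SNRPE lay between -0.13 and 0.079 with 16F16 and between -0.25 and 0.0053 with securinine. SNRPE has a second, dimmer probe set, which gave 0.029 with 16F16 and -0.15 with securinine.

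The minor spliceosome, which removes a rare class of introns, was represented by the U11/U12 protein genes SNRNP25, SNRNP35 and SNRNP48. Of these, SNRNP35 was called lower with securinine, where 10.6% of all genes fell. SNRNP35 had 4.94 and 5.07 in the 16F16 arrays, 4.90 and 4.88 in the securinine arrays and 5.39 and 5.40 in the mock arrays. All treated arrays lay below the mock arrays, whose 2 values were close together. It fell by 0.50 ± 0.082 with securinine (adjusted p = 0.014), to 0.707 of the mock level, and was at -0.39 ± 0.082 with 16F16 without passing (adjusted p = 0.079). The securinine call was lost without any 1 of the mock and securinine arrays (adjusted p from 0.070 to 0.081). SNRNP25 was at 0.11 with 16F16 and 0.012 with securinine, and SNRNP48 at -0.064 and -0.083, and neither passed.

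Among the 8 of the 64 genes that code for U5, U4/U6 and tri-snRNP proteins, SNRNP40 and PRPF3 rose with securinine. Over all genes 8.40% rose with securinine and 10.6% fell. SNRNP40, a WD-repeat protein of U5, had 7.31 and 7.23 in the 16F16 arrays, 7.62 and 7.55 in the securinine arrays and 7.24 and 7.19 in the mock arrays. PRPF3, a U4/U6 protein mutated in forms of inherited retinal degeneration, had 7.05 and 7.04 with 16F16, 7.37 and 7.45 with securinine and 7.09 and 7.04 in mock. For both genes the securinine arrays stood above all the others, and the 16F16 arrays overlapped mock. SNRNP40 rose by 0.37 ± 0.081 with securinine (adjusted p = 0.030) and PRPF3 by 0.35 ± 0.078 (adjusted p = 0.034), while with 16F16 they were at 0.057 and -0.018. Without any 1 of the mock and securinine arrays both calls were lost, with adjusted p from 0.089 to 0.14 for SNRNP40 and from 0.099 to 0.15 for PRPF3, and the PRPF3 call also without either 16F16 array (0.055). With arrays centred on their medians neither passed (adjusted p = 0.053 for SNRNP40 and 0.056 for PRPF3). The other 6 of these 8 genes did not pass with either compound. PRPF8, the large U5 protein at the catalytic centre, was at 0.078 with 16F16 and -0.045 with securinine, and the helicase gene SNRNP200 at -0.040 and -0.099. PRPF31, also linked to retinal degeneration, had the lowest PRPF value with 16F16 (-0.26 ± 0.076), and PRPF6 the lowest with securinine (-0.19 ± 0.077).

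Of the 5 other PRPF genes, PRPF39 was called with securinine, which is 20% of the 5 beside 19.0% of all genes. PRPF39, whose yeast counterpart is a U1 protein, had 6.76 and 6.62 in the 16F16 arrays, 7.31 and 7.24 in the securinine arrays and 6.61 and 6.54 in the mock arrays. The securinine arrays lay apart from the other 4. It rose by 0.70 ± 0.090 with securinine (adjusted p = 0.0074), 1.63-fold, and was at 0.12 ± 0.090 with 16F16 (adjusted p = 0.50). Leaving out mock replicate 2 gave an adjusted p of 0.057 with securinine, and leaving out securinine replicate 1 gave 0.055. PRPF18, PRPF19, PRPF38A and PRPF40B lay between -0.18 and -0.061 with 16F16 and between -0.16 and 0.18 with securinine.

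**Figure D2:**
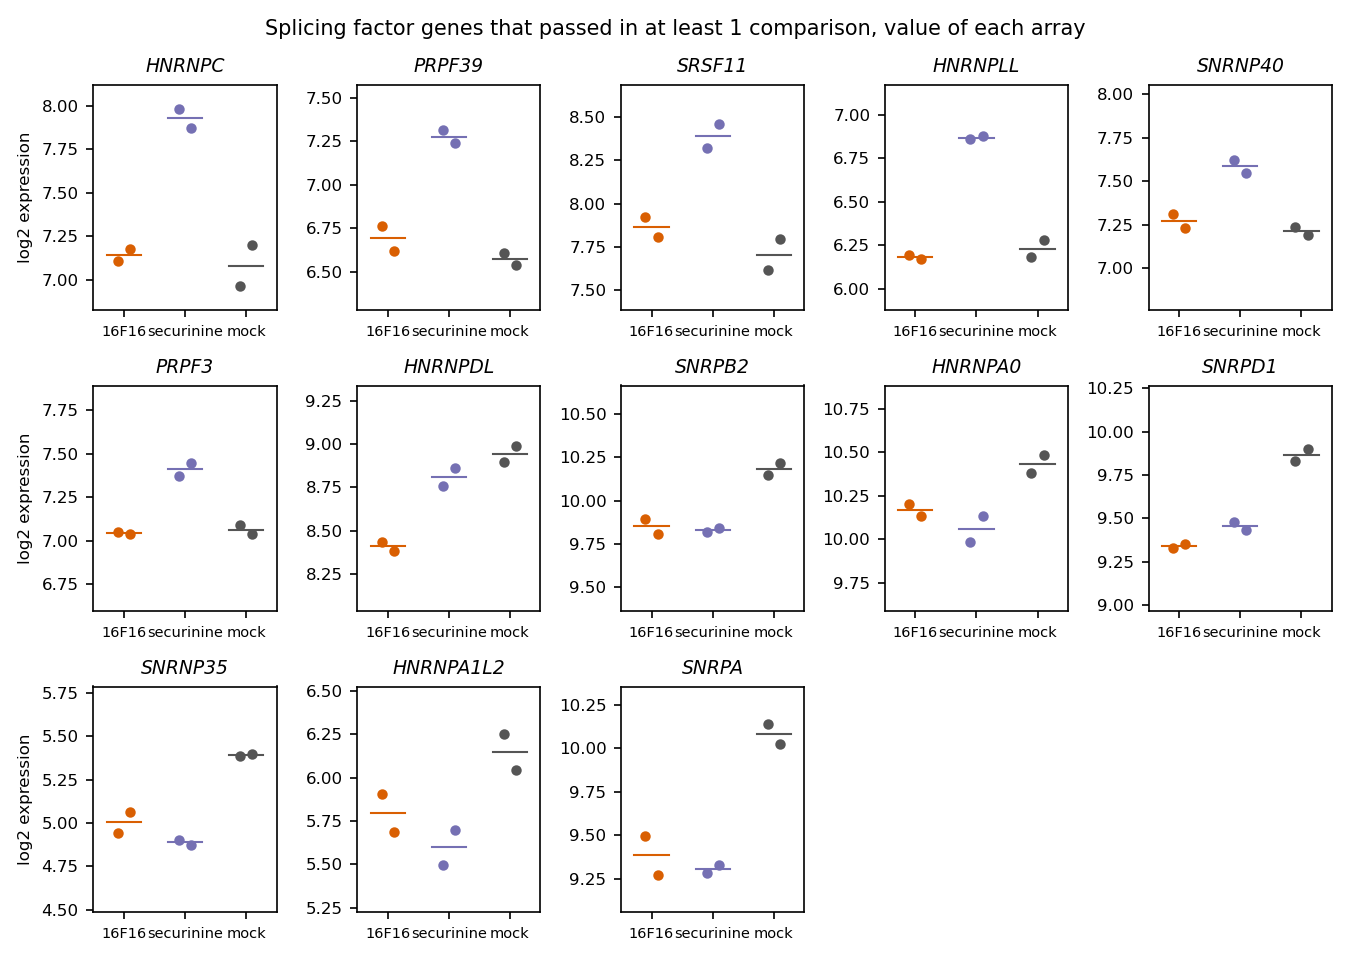
Log2 expression on each array for the 13 splicing factor genes that passed in at least 1 of the 3 comparisons, ordered by the difference of securinine from mock. Points are arrays, with 16F16 left, securinine in the middle and mock right, lines are means of 2 arrays, and each panel spans the same range of log2 units. In HNRNPC, PRPF39, SRSF11, HNRNPLL, SNRNP40 and PRPF3 the securinine arrays stand above the rest, and in SNRPB2, HNRNPA0, SNRPD1, SNRNP35, HNRNPA1L2 and SNRPA both treatments stand below mock.

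Among the 21 HNRNP genes 2 rose and 2 fell with securinine, 19.0% of the family beside 19.0% of all genes, and 0 were called with 16F16 in limma (3 at an unadjusted p under 0.05, all lower). HNRNPC, which binds uridine tracts in nascent transcripts, had 7.11 and 7.17 in the 16F16 arrays, 7.98 and 7.87 in the securinine arrays and 6.97 and 7.20 in the mock arrays. HNRNPLL, known for regulating alternative exons in lymphocytes, had 6.19 and 6.17 with 16F16, 6.86 and 6.88 with securinine and 6.18 and 6.28 in mock. In both genes the securinine arrays lay above all others, and the other 2 groups overlapped. HNRNPC rose by 0.85 ± 0.11 with securinine (adjusted p = 0.0073), 1.80-fold, the largest rise among the 64 genes, and HNRNPLL by 0.64 ± 0.079 (adjusted p = 0.0069), 1.56-fold. With 16F16 they were at 0.060 ± 0.11 and -0.046 ± 0.079. The HNRNPC call was lost without securinine replicate 1 (adjusted p = 0.055) and the HNRNPLL call without mock replicate 1 (0.054).

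The 2 HNRNP falls with securinine were HNRNPA1L2, a near-identical relative of HNRNPA1, and HNRNPA0, a binder of AU-rich mRNA. HNRNPA1L2 had 5.90 and 5.69 in the 16F16 arrays, 5.50 and 5.70 in the securinine arrays and 6.25 and 6.04 in the mock arrays. HNRNPA0 had 10.20 and 10.14 with 16F16, 9.98 and 10.14 with securinine and 10.38 and 10.49 in mock. The treated arrays lay below the mock arrays in both genes. HNRNPA1L2 fell by 0.55 ± 0.13 (adjusted p = 0.038) and HNRNPA0 by 0.38 ± 0.093 (adjusted p = 0.044) with securinine, and neither passed with 16F16 (-0.35 ± 0.13 and -0.27 ± 0.093). Both calls were lost without any 1 of the mock and securinine arrays, with adjusted p from 0.081 to 0.19, and the HNRNPA0 call also without either 16F16 array (0.065).

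Some close relatives in this family had differences of opposite sign with securinine. HNRNPA1 was at 0.36 ± 0.12 with securinine without passing (adjusted p = 0.085), with both securinine arrays above both mock arrays, while HNRNPA1L2 fell. HNRNPA1P10 and HNRNPA1P33, HNRNPA1 pseudogenes outside the protein-coding rule, had securinine arrays below mock. HNRNPA1P10 was at -0.29 ± 0.087 without passing (adjusted p = 0.074). HNRNPA1P33, below the array median on 5 arrays, fell by 0.72 ± 0.16 (adjusted p = 0.030). With 16F16 these pseudogenes were at -0.31 and -0.77 without passing. How much of the HNRNPA1 signal each probe set holds was not tested. The HNRNPC relatives HNRNPCL1 and HNRNPCL2 were at -0.24 and 0.27 with securinine, both on dim probe sets. Probe sets of such copies can share signal, so their single values are uncertain. HNRNPDL, a binder of AU-rich RNA, had 8.44 and 8.38 in the 16F16 arrays, 8.76 and 8.86 in the securinine arrays and 8.90 and 8.99 in the mock arrays. The 3 groups did not overlap, and its difference of -0.53 ± 0.085 with 16F16, the lowest of the family, did not pass (adjusted p = 0.054), nor did -0.13 ± 0.085 with securinine. HNRNPF was at 0.061 with 16F16 and -0.14 with securinine and HNRNPR at -0.18 and 0.027, and HNRNPK, HNRNPU, HNRNPL and HNRNPM lay between -0.22 and -0.087 with 16F16 and between -0.23 and -0.096 with securinine, without passing. HNRNPH1 was at -0.060 with 16F16 and 0.32 ± 0.094 with securinine (adjusted p = 0.071), and HNRNPA2B1 at -0.15 and 0.12.

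Of the 10 SRSF genes, SRSF11 rose with securinine, which is 10% of the family called beside 19.0% of all genes. With 16F16 0 were called in limma. At an unadjusted p under 0.05 there was 1 with 16F16, beside 3139 of all 14884 genes. SRSF11, an SR-related protein, had 7.92 and 7.81 in the 16F16 arrays, 8.32 and 8.45 in the securinine arrays and 7.62 and 7.80 in the mock arrays. The securinine arrays lay above the other 4, and the 16F16 arrays just above mock. It rose by 0.68 ± 0.11 with securinine (adjusted p = 0.012), 1.60-fold, and was at 0.16 ± 0.11 with 16F16. When mock replicate 1 was left out the adjusted p was 0.070, and it was 0.055 without securinine replicate 1 and 0.067 without securinine replicate 2.

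SRSF1, the SR protein first described as a splicing factor in cell extracts, had 11.23 and 11.24 with 16F16, 11.29 and 11.24 with securinine and 11.54 and 11.48 in mock. All treated arrays were below mock, and the differences of -0.27 ± 0.076 with 16F16 and -0.25 ± 0.076 with securinine did not pass (adjusted p = 0.13 and 0.079). SRSF5 was at 0.11 with 16F16 and 0.28 ± 0.085 with securinine (adjusted p = 0.076), and SRSF12 was highest of the family with 16F16 at 0.20 ± 0.11. The classical SR genes SRSF2, SRSF3, SRSF4, SRSF6 and SRSF7, together with SRSF8, lay between -0.20 and 0.070 with 16F16 and between -0.17 and 0.20 with securinine. The median of the family was -0.022 with 16F16 and 0.0029 with securinine.

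The U2AF and LSM genes held no call, where 19.0% of all genes were called with securinine and 1.50% with 16F16. U2AF1L4, a U2AF1-like gene, had 6.78 and 6.82 in the 16F16 arrays, 6.35 and 6.49 in the securinine arrays and 6.39 and 6.42 in the mock arrays. Its 16F16 arrays lay above all the others, and the difference of 0.40 ± 0.085 from mock did not pass (adjusted p = 0.081), while securinine was at 0.018 ± 0.085, a value that turned negative with quantile normalization or centred arrays. U2AF2 and U2AF1, the subunits of the dimer that reads the acceptor site, were at -0.17 and -0.064 with 16F16 and at -0.075 and -0.024 with securinine. LSM12 was at -0.049 with 16F16, turning to 0.041 without mock replicate 2, and at 0.16 with securinine. LSMEM1, which the prefix rule picks but which codes for a membrane protein and not for an LSm protein, was at -0.14 with 16F16 and -0.018 with securinine, which turned to 0.090 without securinine replicate 1.

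The direct comparison of 16F16 with securinine, at the unequal doses given, asked in which of the 64 genes the treatments differed. In 6 genes the 16F16 arrays were lower and in 0 higher by limma, where 3.96% of all genes were called lower and 5.55% higher. At an unadjusted p under 0.05, 2 of the 64 were higher and 12 lower, beside 2198 higher and 1918 lower of all 14884 genes. The 6 were 9.38% of the 64, beside 9.51% of all genes called. HNRNPC was at -0.79 ± 0.11 for 16F16 minus securinine (adjusted p = 0.019), HNRNPLL at -0.69 ± 0.079 (0.014), PRPF39 at -0.58 ± 0.090 (0.023), SRSF11 at -0.52 ± 0.11 (0.040) and PRPF3 at -0.37 ± 0.078 (0.045). These 5 were genes that rose with securinine. Both comparisons use the same securinine arrays, so this overlap is not independent support. The other was HNRNPDL, at -0.40 ± 0.085 (0.045), whose 16F16 value was the lower of the treated groups. SNRNP40, the remaining gene that rose with securinine, did not pass here (-0.32 ± 0.081, adjusted p = 0.068). Without mock replicate 1 or mock replicate 2 the count of lower genes was 2, with 2.18% of all genes called each time. It was 0 without any 1 of the treated arrays, in fits that called 1.75% of all genes without 16F16 replicate 2 and 0 of all genes in the other 3.

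For the genes that fell with securinine, no difference between the treatments passed. SNRPA was at 0.079 for 16F16 minus securinine, with a 95% interval from -0.18 to 0.34. The interval was -0.31 to 0.076 for SNRPD1, -0.18 to 0.22 for SNRPB2, -0.090 to 0.32 for SNRNP35, -0.12 to 0.34 for HNRNPA0 and -0.13 to 0.52 for HNRNPA1L2. These intervals include 0 and differences well away from it, so they do not show that the treatments acted alike. Family extremes that did not pass included U2AF1L4 (0.38 ± 0.085, adjusted p = 0.051), SNRPD2 (0.22 ± 0.10), HNRNPF (0.20 ± 0.080), SRSF12 (0.20 ± 0.11), PRPF6 (0.13 ± 0.077), LSM12 (-0.21 ± 0.094), LSMEM1 (-0.13 ± 0.11), U2AF2 (-0.092 ± 0.076) and SNRPG (-0.18 ± 0.16).

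Other genes of the splicing machinery were read from 7 lists, of whose 119 genes 84 were measured. With securinine 8 rose and 13 fell. They were 25.0% of the 84, beside 19.0% of all genes and 25.3% of genes above the median of all probe sets. With 16F16 0 were called in limma. At an unadjusted p under 0.05 with 16F16 there were 27 of the 84 (3 higher and 24 lower), beside 3139 of all 14884 genes (1455 higher and 1684 lower). Of the 7 kinases that phosphorylate SR proteins, 3 were called higher with securinine and 0 lower, where 8.40% of all genes rose and 10.6% fell. DYRK1A rose by 0.59 ± 0.082, CLK1 by 0.50 ± 0.079 and CLK4 by 0.47 ± 0.082, and the median was 0.18. The other 4 did not pass with securinine: SRPK2 was at 0.18, CLK2 at 0.015, CLK3 at -0.092 and SRPK1 at -0.17. With 16F16 DYRK1A, CLK1 and CLK4 were at 0.16, -0.042 and 0.26, and SRPK1 at -0.23 ± 0.080, without passing. For 16F16 minus securinine CLK1 and DYRK1A passed (adjusted p = 0.021 and 0.035) and CLK4 did not (0.17).

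Genes that build snRNPs gave 2 falls with securinine among 12 measured, where 10.6% of all genes fell. GEMIN5 and GEMIN4, proteins of the complex that loads Sm rings onto small nuclear RNA, fell by 0.51 ± 0.083 and 0.51 ± 0.11, and COIL, the marker of Cajal bodies, was at 0.48 ± 0.13 without passing (adjusted p = 0.058). With 16F16 PHAX (-0.34 ± 0.10) and STRAP (-0.33 ± 0.082) were the lowest of the list by p and did not pass. Of 11 tri-snRNP genes 2 fell with securinine, again beside 10.6% of all genes. They were PPIH, by 0.48 ± 0.10, and the U5 GTPase EFTUD2, by 0.33 ± 0.084, and USP39 was at 0.27 ± 0.099 without passing. With 16F16 WBP4 (-0.34 ± 0.091), TXNL4A (-0.30 ± 0.074) and SMU1 (-0.26 ± 0.082) did not pass. In the list of 13 U2 site and U1 accessory genes 0 were called with either compound in limma. At an unadjusted p under 0.05 there were 1 with securinine and 4 with 16F16, beside 4998 and 3139 of all 14884 genes. The lowest there were U2SURP with securinine (-0.26 ± 0.094) and DDX42 (-0.37 ± 0.092) and the helicase DHX15 (-0.35 ± 0.074) with 16F16, and RBM17 and LUC7L2 were at 0.15 and -0.12 with securinine.

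Step factors and regulators went both ways with securinine. Of 16 genes of the PRPF19 complex and the catalytic steps 2 rose and 4 fell, where 8.40% of all genes rose and 10.6% fell. BCAS2 rose by 0.38 ± 0.081 and RBM22 by 0.32 ± 0.075. XAB2 fell by 0.59 ± 0.088, the second-step factor SLU7 by 0.55 ± 0.080, CDC40 by 0.37 ± 0.077 and CDC5L by 0.30 ± 0.075. With 16F16 XAB2 was at -0.32 ± 0.088, SLU7 at -0.29 ± 0.080 and RBM22 at 0.30 ± 0.075, without passing. Of 10 exon junction and SR-related genes 1 rose and 1 fell with securinine, where 8.40% of all genes rose and 10.6% fell. SON rose by 0.57 ± 0.078 and the exon junction helicase EIF4A3 fell by 0.47 ± 0.084. RBM8A was at 0.23 ± 0.075 without passing. With 16F16 SON was at 0.27 ± 0.078, EIF4A3 at -0.25 ± 0.084 and TRA2B at -0.32 ± 0.079, and none passed. Of 15 alternative splicing regulators 2 rose and 4 fell with securinine, where 8.40% of all genes rose and 10.6% fell. PTBP3 rose by 0.45 ± 0.087 and TIA1 by 0.41 ± 0.089, and the neuronal regulator NOVA2 fell by 0.68 ± 0.12, MBNL3 by 0.65 ± 0.10 and MBNL2 by 0.53 ± 0.082. The neuronal regulator SRRM4, which promotes neuronal microexons, was also lower with securinine (-0.57 ± 0.12, adjusted p = 0.029), and with 16F16 MBNL2 (-0.38 ± 0.082), SRRM4 (-0.37 ± 0.12) and PTBP2 (-0.31 ± 0.093) did not pass. In this list the median with 16F16 was -0.18, beside -0.012 over all genes, and with securinine it was 0.0059.

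**Figure D3:**
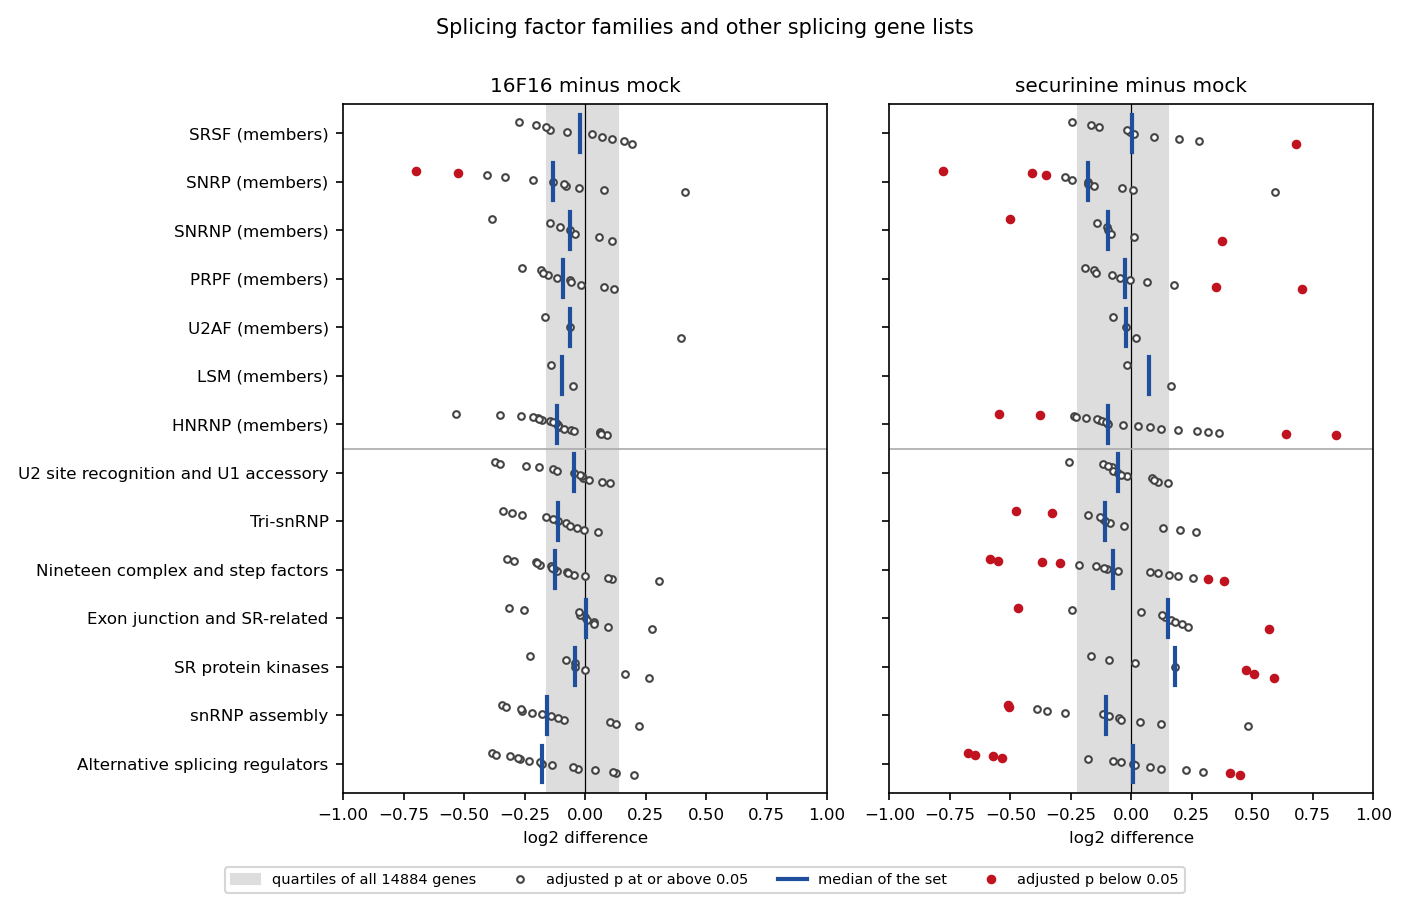
Log2 differences of the splicing factor families (above the grey line) and of the 7 lists of other splicing genes (below it), with 16F16 minus mock on the left and securinine minus mock on the right. Points are genes, filled where the adjusted p was under 0.05, blue bars are medians of a set and the grey band spans the quartiles of all 14884 genes. Filled points lie on both sides with securinine, and with 16F16 the filled points are SNRPA and SNRPD1.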

How the data were processed

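The deposited values were log2 expression of 53617 probe sets, from 6 arrays of the Human Gene 2.0 ST design (Affymetrix). Per the submitters' processing notes, which give no versions, the tools were RMA and limma, and the annotation release is not given in the sources used here. RMA normalizes between arrays, so a shift common to the majority of genes is lost.

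Probe sets were named through the platform's table, in which 16098 (30.0%) carried a single gene symbol and were kept. The other 37519 are unnamed here, and any with several symbols would be among them. All 16098 matched RefSeq (GRCh38.p14) by Entrez identifier, and the brightest probe set of each of 14884 genes was kept. SNRPE and SNRNP27 had a second one.

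Genes were fitted with limma (version 3.58.1, R 4.3.3; lmFit and eBayes, group as the only term, all 6 arrays, 3 residual and 2.68 prior degrees of freedom), two-sided, with Benjamini-Hochberg adjustment over 14884 genes and a threshold of 0.05. The fit was tested on simulated data. Errors after differences are SE, with a median of 0.11, and the number of arrays limits the precision. No scanner file or detection call entered the fits.

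The members and lists were chosen with earlier results of these data known. Named were, per comparison, up to 12 called members with the lowest adjusted p, the highest and lowest of each family, and up to 3 genes of each list by p. Other genes in the text were named after their values were seen. Alternatives were quantile normalization, centring, other variance priors, fits of 4 arrays, a replicate block, other probe-set choices and filters, other sets of tested features, and leaving out each array.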

Additional observations from a re-analysis of the deposited data

How the results depend on the processing

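Replicate numbers are shared by the groups, and deviations of same-numbered arrays correlated at -0.032, 0.038 and -0.050. These values showed no pairing by number over all genes, and they cannot exclude that the cultures were handled in pairs. With securinine the 6 rises became 4 with centred arrays, the replicate block or all probe sets tested, 8 with protein-coding genes tested, 9 with genes above the median of all probe sets and 10 with an intensity trend in the prior. In each setting with 4 rises the PRPF3 and SNRNP40 calls were lost (adjusted p = 0.056 and 0.053 centred, 0.068 and 0.051 with the block, 0.13 and 0.11 with all probe sets). Likewise the 6 falls became 11 with the trend, 3 with the replicate block and 1 with all probe sets tested. With 16F16 the 2 falls became 0 with quantile normalization, centred arrays, a robust prior, the 4 arrays of the groups compared, the replicate block or all probe sets tested, 4 with protein-coding genes tested, 6 with genes above the median of all probe sets and 11 with the trend, and the 0 rises became 1 with the last 2 of these settings. For 16F16 against securinine the 6 lower genes became 3 with centred arrays or the replicate block, 2 with the 4 arrays, 0 with all probe sets tested and 13 with the trend, and the 0 higher became 1 with quantile normalization, centring, genes above the median or protein-coding genes, and 3 with the trend. Testing all probe sets or fewer genes changes the number of p-values adjusted over. The cause of the other shifts was not tested.

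The median of the members moved to -0.091 with centred arrays for securinine (main value -0.060), to -0.075 with quantile normalization for 16F16 (-0.11), and to 0.0086 with quantile normalization for 16F16 against securinine (-0.044). Leaving out 1 array gave 1 to 6 rises and 0 to 5 falls with securinine and medians from -0.089 to -0.054, 0 rises and 0 falls with 16F16 and medians from -0.12 to -0.067, and 0 higher and 0 to 2 lower genes with medians from -0.075 to -0.029 for 16F16 against securinine. U2AF1L4 with securinine, not called, turned to -0.0062 with quantile normalization and -0.013 with centred arrays, and ranged from -0.051 to 0.087 with 1 array left out. LSMEM1 ranged from -0.13 to 0.090 with securinine and LSM12 from -0.14 to 0.041 with 16F16 when 1 array was left out. In the 6 such fits of 16F16 against mock 0 of all 14884 genes were called. No gene called against mock changed direction under any alternative listed above; directions for 16F16 against securinine were not followed gene by gene.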
